A study of Homo sapiens with 6 samples.

Results

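The 10 large genes that lie near chromosome ends were described through the regions enriched for 5-hydroxymethylcytosine (5hmC) and 5-methylcytosine (5mC) inside them. The genes were PTPRN2, MAD1L1, SDK1, PRDM16, CAMTA1, HDAC4, RBFOX3, TBCD, COL5A1 and DLGAP2, taken as fixed intervals on hg19, and every listed region that overlapped an interval by at least 1 bp was a member. This gave 2808 of 593403 regions. The cells were A2058, a human melanoma cell line that overexpressed wild-type TET2 in every sample, and they were cultured for 7 days in high or normal glucose. The assays were hMeDIP-seq for 5hmC and MeDIP-seq for 5mC. Both enrich DNA fragments with an antibody to the base in question. There was 1 library for each mark at each glucose level, and the input libraries (1 per glucose level) were not analysed here. All groups thus share the transgene, and cells without it were not analysed here. With 1 library per group no difference between the glucose levels has a replicate check, no test is given, and the intervals printed below cover counting error only.

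In DNA, 5mC is written by DNA methyltransferases and is oxidised to 5hmC by the TET dioxygenases, of which TET2 is one. Gene bodies of transcribed genes commonly carry much 5mC, CpG-rich promoters of active genes usually carry little, and 5hmC is typically found inside genes and at regulatory elements. Both marks are often dense in the GC-rich, gene-rich sequence near chromosome ends. Because the lists give places of enrichment and not a level per cytosine, each gene is described by its cover, the percent of the gene body that lies in listed regions.

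The genes measured 191 to 1049 kb and lay 0.294 to 6.84 Mb from the outermost listed region at the nearer end of their chromosome. Together they spanned 5.17 Mb. They held 761 5hmC regions in high glucose and 874 in normal glucose, and 599 and 574 5mC regions. The lists as a whole held 191314, 209999, 100220 and 91870 regions on chromosomes 1 to 22 and X. The expected number of fragments at a site without enrichment, recovered from each region's fold and p-value, was 3.03 for 5hmC in high glucose, 2.64 for 5hmC in normal glucose, and 0.737 and 0.615 for 5mC. Background was thus lower in the 5mC lists, and in both marks the high-glucose library had the higher background. With the background matched and only regions past a -log10 p of 10, the differences in 5hmC cover given below kept their direction in each of the 10 genes. Matching scaled down the high-glucose list only, so it could remove regions from that list and lower a ratio, but not raise it. Only genes with more 5hmC in high glucose could thus have turned by the matching. The intervals may hold other genes, and exons and introns were not separated, because no hg19 annotation was used here.

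The 10 genes fell far apart in 5mC. In high and normal glucose, 5mC regions covered 59.8% and 58.9% of MAD1L1, 56.6% and 55.2% of TBCD, 37.5% and 35.6% of HDAC4, and 29.0% and 27.8% of COL5A1. In the other 6 genes the cover was between 0.912% and 5.92%, with the 2 lowest values in RBFOX3. The 4 genes are called 5mC-rich and the 6 others 5mC-poor below, a split at 20% cover that was made after the values were seen. 5mC cover of a 100 kb tile reached 20% (mean of both lists) in 577 of 30354 tiles over all chromosomes, in 471 of the 5490 tiles within 10 Mb of an outermost region, and in 11 of the 53 tiles inside the 10 genes.

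5hmC cover was lower in high than in normal glucose in all 4 5mC-rich genes and higher in 5 of the 6 5mC-poor genes. It was 12.9% against 22% in HDAC4, 19.2% against 25.4% in MAD1L1, 15.7% against 20.1% in COL5A1 and 24.8% against 30.6% in TBCD. The ratios of high over normal were 0.585, 0.756, 0.780 and 0.809. Among the 5mC-poor genes CAMTA1 was lower, at 12.3% against 13.4%. PTPRN2 had 9.23% in high and 8.57% in normal glucose, RBFOX3 10.3% and 9.11%, PRDM16 6.69% and 5.86%, SDK1 5.15% and 4.93%, and DLGAP2 4.04% and 3.52%. The ratios of these 5 genes ran from 1.04 in SDK1 to 1.15 in DLGAP2. Once regions with a -log10 p under 10 were dropped, SDK1 had 1.26, RBFOX3 1.27 and DLGAP2 1.33, and the 5mC-rich genes ran from 0.644 to 0.995. Over the 10 genes the ratio of 5hmC cover was 0.886, and 0.981 once regions with a -log10 p under 10 were dropped. Pooled, the 4 genes gave a ratio of 0.724 and the 6 genes 1.02, while over all chromosomes it was 0.922. By number, the 5mC-rich genes had 273 regions in high against 360 in normal glucose, for a ratio of 0.758 (95% counting interval 0.648 to 0.887). The 5mC-poor genes had 488 and 514, for a ratio of 0.949 (0.839 to 1.07). Number and cover did not always go the same way. SDK1 (77 against 84), RBFOX3 (67 against 68) and DLGAP2 (14 against 15) had fewer regions in high glucose despite their higher cover. PTPRN2 (134 against 132) and PRDM16 (38 against 31) had more. The value of 0.995 was that of COL5A1, so its difference depended on the threshold. The ratio of HDAC4 was between 0.565 and 0.644 in the 5 alternatives of threshold, background, number of regions and merging.

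**Figure D1:**
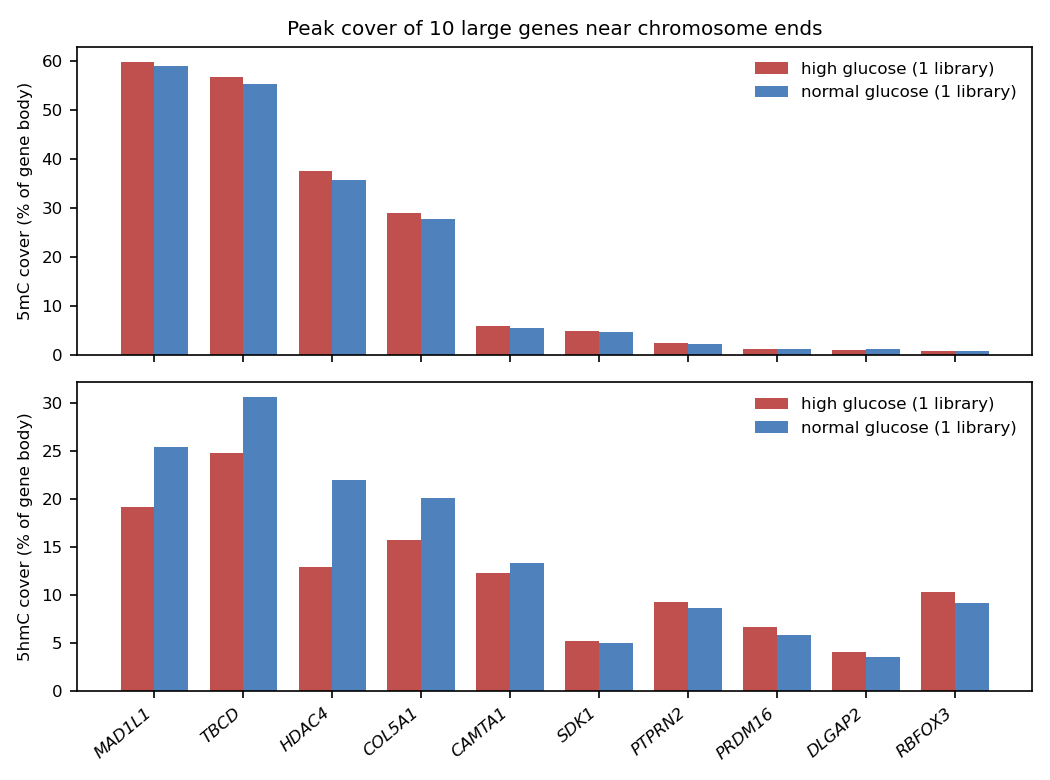
Bars show the percent of each gene body covered by 5mC regions (top) and 5hmC regions (bottom), 1 library per bar, with genes ordered by 5mC cover. The 4 genes on the left have 5mC bars of 27.8% or more and the taller blue 5hmC bars of normal glucose, from 20.1% to 30.6%.

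5mC cover itself was close between the glucose levels. It was higher in high glucose in 8 of 10 genes and lower in PRDM16 (1.35% against 1.38%) and DLGAP2 (1.14% against 1.25%), but the direction turned under at least 1 alternative in PRDM16, SDK1, CAMTA1 and RBFOX3. It did not turn in the 4 5mC-rich genes, in PTPRN2 or in DLGAP2. The largest difference in percentage points was 1.89 in HDAC4, and pooled over the 10 genes the ratio was 1.04, against 1.08 over all chromosomes. The count of 5mC regions gave 1.04 with an interval of 0.931 to 1.17.

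Few regions of either mark lay at the 5′ ends. Stretches of the same length elsewhere were not counted, so whether the 5′ ends held fewer regions than other sequence was not tested. Some genes had few regions anywhere, with 1.35 5mC regions per 100 kb in PRDM16 and 1.41 in RBFOX3 in high glucose. No list had a region less than 1 kb from the 5′ end in 7 of the 10 genes. HDAC4 was at that limit, with 5hmC 1000 bp outside in high glucose and 5mC 1025 and 1032 bp outside. The exceptions were PTPRN2, with 5mC 323 bp outside the gene in high and 326 bp in normal glucose, TBCD, with 5mC outside at 539 and 556 bp and 5hmC inside at 773 bp in high glucose only, and COL5A1, with 5hmC 585 bp outside in normal glucose only. MAD1L1, the gene with the most 5mC, had its nearest 5mC region 3546 and 3611 bp inside the gene. Promoter sequences were matched for 5 of the 10 genes. The match to the hg19 interval rested on gene length, so the start used may differ from the interval's 5′ end. The promoters of the 4 5mC-rich genes are shown because their bodies were heavily covered while the 5′ ends of their hg19 intervals held few regions or none. Each is the 250 bases before the gene's start from RefSeq on GRCh38.p14, 5′ to 3′ on the gene's strand, with every CpG (the letters CG, the same on both strands) in capitals. In that build, whose positions are not comparable with the hg19 positions used elsewhere, they lie at chr7:2232946-2233195 (minus strand), chr17:82751815-82752064 (plus), chr2:239401650-239401899 (minus) and chr9:134641553-134641802 (plus).
MAD1L1: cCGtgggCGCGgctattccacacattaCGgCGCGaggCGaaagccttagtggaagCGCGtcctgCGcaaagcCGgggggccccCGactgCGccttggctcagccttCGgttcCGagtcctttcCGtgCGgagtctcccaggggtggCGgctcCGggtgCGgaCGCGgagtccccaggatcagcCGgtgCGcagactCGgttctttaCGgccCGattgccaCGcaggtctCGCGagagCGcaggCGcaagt
TBCD: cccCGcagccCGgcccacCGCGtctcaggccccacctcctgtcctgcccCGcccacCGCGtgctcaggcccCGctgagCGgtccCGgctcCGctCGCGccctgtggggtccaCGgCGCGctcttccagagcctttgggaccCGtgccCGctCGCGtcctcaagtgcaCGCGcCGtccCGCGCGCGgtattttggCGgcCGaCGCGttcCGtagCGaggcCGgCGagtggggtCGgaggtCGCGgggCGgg
HDAC4: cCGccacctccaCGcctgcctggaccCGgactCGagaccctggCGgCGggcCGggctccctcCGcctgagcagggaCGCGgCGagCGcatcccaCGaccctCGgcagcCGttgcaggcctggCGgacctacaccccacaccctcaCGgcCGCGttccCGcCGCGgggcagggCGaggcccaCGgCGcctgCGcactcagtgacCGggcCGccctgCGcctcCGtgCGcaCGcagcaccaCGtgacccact
COL5A1: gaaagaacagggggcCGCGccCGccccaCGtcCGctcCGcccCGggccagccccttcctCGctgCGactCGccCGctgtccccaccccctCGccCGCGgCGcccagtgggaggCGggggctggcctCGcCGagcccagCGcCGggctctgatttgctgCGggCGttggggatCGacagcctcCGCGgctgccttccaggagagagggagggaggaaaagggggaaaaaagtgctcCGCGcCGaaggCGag

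These windows hold 32 CpGs for MAD1L1, 39 for TBCD, 33 for HDAC4 and 29 for COL5A1, and their GC content is 68.4%, 76.8%, 76.8% and 74.0%. The median of the 35114 promoter windows of the same length was 11 CpGs, and 93.95% held at least 1. At least as many CpGs as in MAD1L1 were found in 9.52% of all windows, at least as many as in TBCD in 2.65%, as in HDAC4 in 8.14% and as in COL5A1 in 14.1%. The promoter of CAMTA1, also matched, held 22.

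To set these values against the rest of the genome, 100 kb tiles were called where 5hmC cover differed at least 1.2-fold. Of the 26919 tiles with any 5hmC, 30.3% were lower and 30.2% higher in high glucose, and within 10 Mb of an outermost region 34.8% and 22.8%. In the genes 14 of 53 tiles were lower, or 26.4%, and 7 were higher, or 13.2%. Among tiles of all chromosomes with 5mC cover of 20% or more, 66.9% were lower and 0.52% higher, and in the genes 9 of 11 such tiles were lower and none was higher. The interval of that share, 52.3% to 94.9%, holds the genome's value. Among tiles with less 5mC, 29.5% were lower and 30.9% higher over all chromosomes, against 5 and 7 of 42 in the genes. Here fewer tiles of the genes passed 1.2-fold than in the genome at large, but the tiles were not matched for cover. In high glucose the median 5hmC cover was 9.975% in all tiles of the genes and 2.314% in all tiles of the genome. Once regions with a -log10 p under 10 were dropped, 32.1% of the genes' tiles were higher in high glucose, with the tiles of 20% or more 5mC included. Over all chromosomes 48.7% of tiles with less 5mC and 6.24% of tiles with 20% or more were then higher. These are shares of unlike sets of tiles and are not compared. For 5mC, 20.6% of all tiles were lower and 38.4% higher in high glucose, 13.5% and 31.7% of the tiles near chromosome ends, and 8 and 14 of 51 tiles in the genes.

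Each gene was then cut into 10 equal parts from its 5′ to its 3′ end. In the 37 parts with 5mC cover of 20% or more, 33 had less 5hmC cover in high glucose and 4 had more. Where 5mC cover was under 20%, 25 of 63 parts had less 5hmC, 37 had more and 1 had the same. All 37 parts with 20% or more lay in the 4 5mC-rich genes, so these counts restate the split between genes and are no separate evidence of it. All 10 parts of HDAC4 and all 10 of MAD1L1 had less 5hmC in high glucose. In HDAC4 the gap was not widest where 5mC was highest. The widest gap, -18.5 percentage points, fell in a part with 23.5% 5mC (mean of both levels), and the smallest, -2.17, in one with 50.2%. PTPRN2 went the other way. Its last part had the most 5mC, 11.3% in high and 10.7% in normal glucose. That part also had the widest gap, with 5hmC at 8.27% against 11.7%, while 8 of the 10 parts had more 5hmC in high glucose. Whether the gap followed 5mC within genes was not tested. COL5A1 also had less 5hmC in its 2 parts under 20% 5mC, with differences of -4.12 and -14.7, while the first part of TBCD, at 19.1% 5mC, had more. The share of 5mC-rich parts with less 5hmC was 89.2% in the full lists and 66.7% once regions with a -log10 p under 10 were dropped. Parts of 1 gene are not replicates, and 5hmC and 5mC regions can share sequence properties such as CpG density, whose part was not tested.

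**Figure D2:**
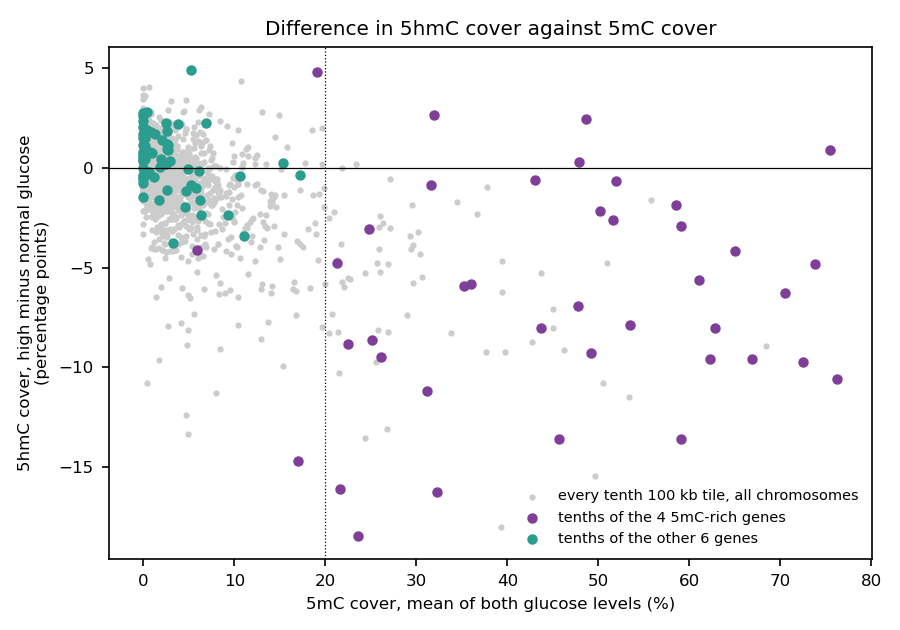
Each point is a part of a gene (purple, 5mC-rich genes; green, the others) or a 100 kb tile (grey, 1 tile in 10), with 5mC cover on the x axis in percent and the difference in 5hmC cover on the y axis in percentage points. To the right of the dotted line at 20%, 33 of 37 gene parts lie below 0, as the grey tiles mostly do, and the lowest is the fourth part of HDAC4 at -18.5.

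5mC cover was uneven along most of the genes, and its highest part was the last one, at the 3′ end, in 6 of 10 genes at each glucose level. These were PTPRN2, SDK1, RBFOX3, TBCD, COL5A1 and DLGAP2. 5hmC had its highest part there in none of the 10 genes in high and in 1 in normal glucose. How often the last part has the most 5mC in other genes was not counted. In RBFOX3 and DLGAP2 the highest part rests on few regions, as their bodies held 6 and 4 5mC regions in high glucose. Across the 100 parts the covers of the marks ranked alike, with a Spearman rho of 0.583 in high and 0.720 in normal glucose. Within the 60 parts of 5mC-poor genes it was 0.224 and 0.329, and within the 40 parts of 5mC-rich genes 0.236 and 0.224. These are descriptions across parts that share a library and a base composition.

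**Figure D3:**
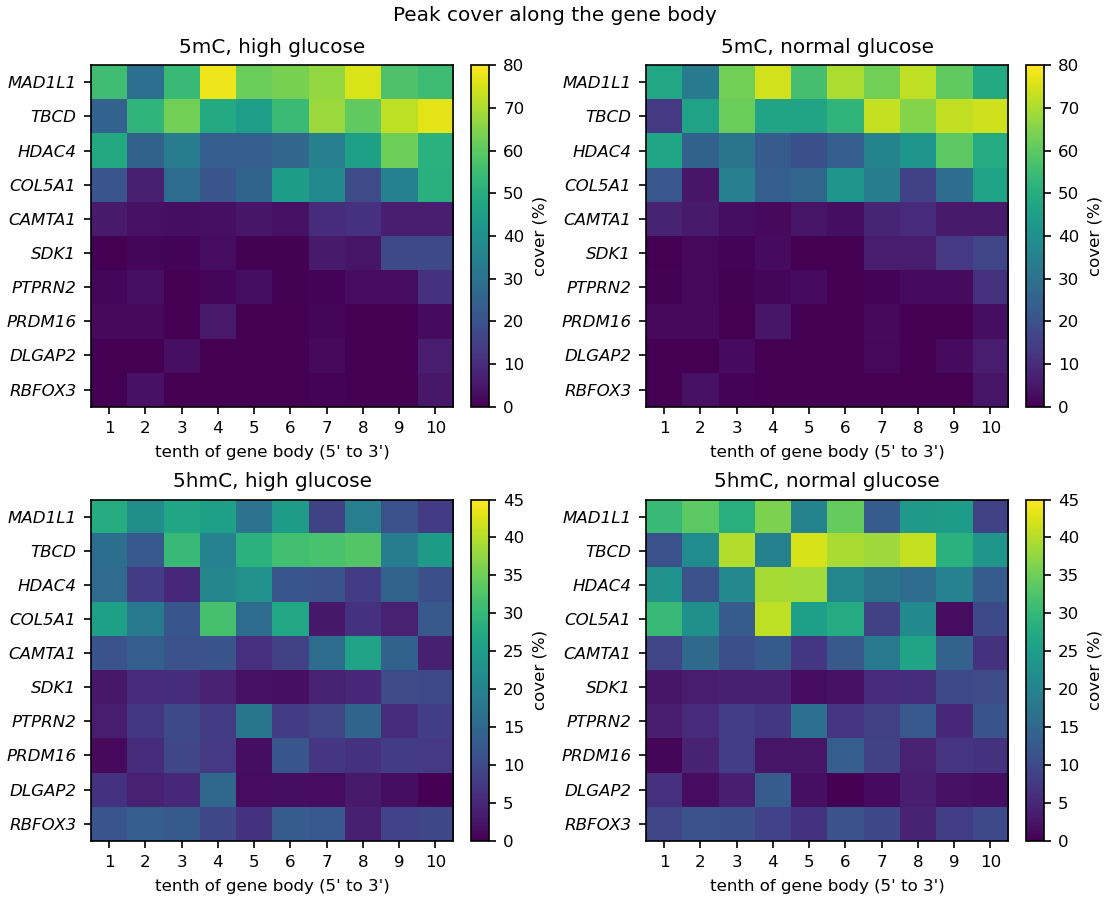
Heat maps give the cover in each of 10 equal parts of the gene body, 5′ on the left, for each of the 4 libraries, with 1 colour scale for 5mC and another for 5hmC. The 5mC maps of both glucose levels show the same 4 bright rows, with 78.1% in the fourth part of MAD1L1 and 76.8% in the last part of TBCD in high glucose, while the 5hmC rows of these genes are brighter in normal glucose.

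The lower 5hmC cover of the 5mC-rich genes was not limited to sequence inside 5mC regions. Inside the 609 kb of these genes that lay in a 5mC region of either glucose level, 5hmC covered 23.7% in high against 31.7% in normal glucose (ratio 0.749). In the 554 kb outside, it covered 10.8% and 16.2% (ratio 0.669). In TBCD the ratio was 0.886 inside and 0.580 outside, and in MAD1L1 0.790 and 0.593, so in these genes the relative difference was larger between the 5mC regions. HDAC4 gave 0.550 and 0.637 and COL5A1 0.721 and 0.819, the other order. In the 5mC-poor genes the ratios were 0.942 inside and 1.04 outside, and over all chromosomes 0.824 and 0.946. The 5mC sequence of DLGAP2 amounted to 2.91 kb, so its values there, 0.824% and 12.5%, rest on very few regions.

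**Figure D4:**
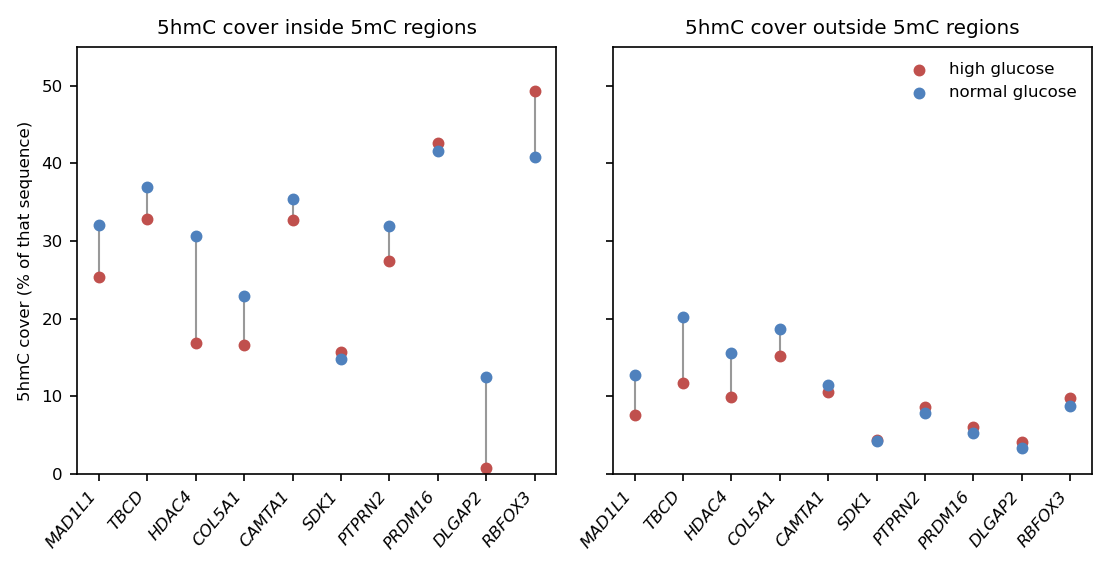
Points give 5hmC cover in percent of the sequence inside (left) and outside (right) 5mC regions of each gene, red for high and blue for normal glucose, with a line between the 2 libraries. The 4 genes on the left of each panel have the red point below the blue one on both sides, and HDAC4 has 16.9% against 30.6% inside.

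Among the regulators of transcription, HDAC4 encodes a class IIa histone deacetylase that shuttles between cytoplasm and nucleus. Its body (chr2:239969864-240322643, minus strand) held 64 5hmC regions in high against 107 in normal glucose. The ratio of 0.598 (0.439 to 0.814) is the only one of the 10 genes whose counting interval does not hold 1. Of the 107, 55 had a partner in high glucose, or 51.4% (42.0% to 60.7%), against 68.8% over all normal-glucose regions. Of the 64, 56 had one in normal glucose, or 87.5% (77.2% to 93.5%), against 75.9% over all high-glucose regions. The largest gaps lay in parts 3 to 5, with 5.03%, 20.5% and 22.7% in high against 21.3%, 39.0% and 38.8% in normal glucose. The 5mC cover of these parts was 33.9%, 24.0% and 23.8% against 30.7%, 23.04% and 19.5%. Of its 5mC regions, 33.1% (25.4% to 41.7%) overlapped 5hmC in high glucose and 60.0% (50.7% to 68.7%) in normal glucose. Over all 5mC regions it was 32.2% and 39.7%, so HDAC4 lay above that value in normal glucose, while in high glucose its interval holds it. The shares were not matched for 5hmC cover, which in normal glucose was 22% in HDAC4 and a mean of 4.11% over all 100 kb tiles. Flanks of the length of HDAC4 held little 5mC, at 0.504% upstream and 6.34% downstream in high glucose. The strongest 5hmC region in high glucose lay at chr2:240266679-240268940, with a fold enrichment of 19.1 and 76 fragments at the summit, and in normal glucose at chr2:240080251-240082553, with a fold of 11.5 and 41 fragments. Its strongest 5mC region lay near the 3′ end, at chr2:239973681-239975619 in high glucose with 76 fragments, and carried no 5hmC in either list. Folds are the authors' values, fragment numbers were worked out from fold and p-value, and here both only describe regions within a list.

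PRDM16 encodes a zinc finger regulator known for its part in brown fat cell identity. Its body (chr1:2985742-3355185, plus strand) was nearly free of 5mC, with 5 regions listed in high glucose and 6 in normal glucose, of which 5 were shared. 5hmC covered 6.69% in high and 5.86% in normal glucose, from 38 and 31 regions. Its strongest 5mC region, at chr1:3097040-3099076 in high glucose with 111 fragments, lay 112 kb from the 5′ end and overlapped 5hmC at both glucose levels. The sequence downstream of PRDM16 was different, with 22.5% and 21.0% 5mC, and there 5hmC was lower in high glucose, at 14.7% against 17.0%.

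CAMTA1 encodes a calmodulin-binding transcription activator. Its body (chr1:6845384-7829766, plus strand) held the most 5hmC regions of the 10 genes, 158 and 184, and the 5mC cover was 5.92% and 5.55%. 5hmC was lower in high glucose in 8 of its 10 parts, with a largest difference of -3.76 percentage points. Both marks had their highest cover in the eighth part, where 5hmC reached 25.9% and 26.4%. The strongest 5mC region of CAMTA1 lay there as well, at chr1:7552478-7553976 in high glucose with 91 fragments, and overlapped 5hmC in both lists. The widest 5hmC region of the 10 genes in high glucose, 3698 bp at chr1:7557974-7561671, was close by. The 3 strongest 5mC regions without a high-glucose partner were all in CAMTA1, the first at chr1:7028445-7029039 with a fold of 9.67 and 18 fragments.

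MAD1L1 and TBCD serve the cytoskeleton and cell division. MAD1L1 encodes a component of the spindle assembly checkpoint, and its body (chr7:1855428-2272583, minus strand) had 130 and 134 5mC regions with a median width of 1179 and 1027 bp. A single 5mC region of 12650 bp in high glucose, at chr7:1948321-1960970, was the widest in the 10 genes, and its normal-glucose counterpart measured 12592 bp. Of the 5hmC regions of MAD1L1, 93.5% in high and 89.3% in normal glucose overlapped 5mC, against 17.6% and 18% over all regions. These shares were not matched for 5mC cover, which was 59.8% and 58.9% in MAD1L1 and a mean of 2.35% and 2.18% over all 100 kb tiles. A region placed anywhere in this gene would often meet 5mC, and whether the overlap exceeded that was not tested. The strongest 5hmC region in high glucose, at chr7:2098623-2099534 with a fold of 23.1 and 99 fragments, fell inside the strongest 5mC region, at chr7:2098148-2103624 with a fold of 74.5 and 166 fragments. The widest gap in 5hmC was in the ninth part, with 11.2% against 24.8%.

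TBCD encodes tubulin folding cofactor D. Its body (chr17:80709940-80900724, plus strand) had the highest 5hmC cover of the 10 genes at both glucose levels. 5mC was lowest in its first part, at 25.1% and 13.1%, and highest in the last, at 76.8% and 74.2%. 5hmC was lower in high glucose in 7 of 10 parts, most in the fifth with 28.7% against 42.3%, and higher in the first with 16.2% against 11.4%. Its strongest 5mC region had the highest 5mC fold of the 10 genes in high glucose, 87.5 with 151 fragments, at chr17:80759028-80761136, 49.9 kb from the 5′ end. The strongest 5hmC region without a high-glucose partner in the 10 genes lay in TBCD, at chr17:80869602-80870097, with a fold of 6.62 and 28 fragments, and 5mC was listed there at both glucose levels.

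**Figure D5:**
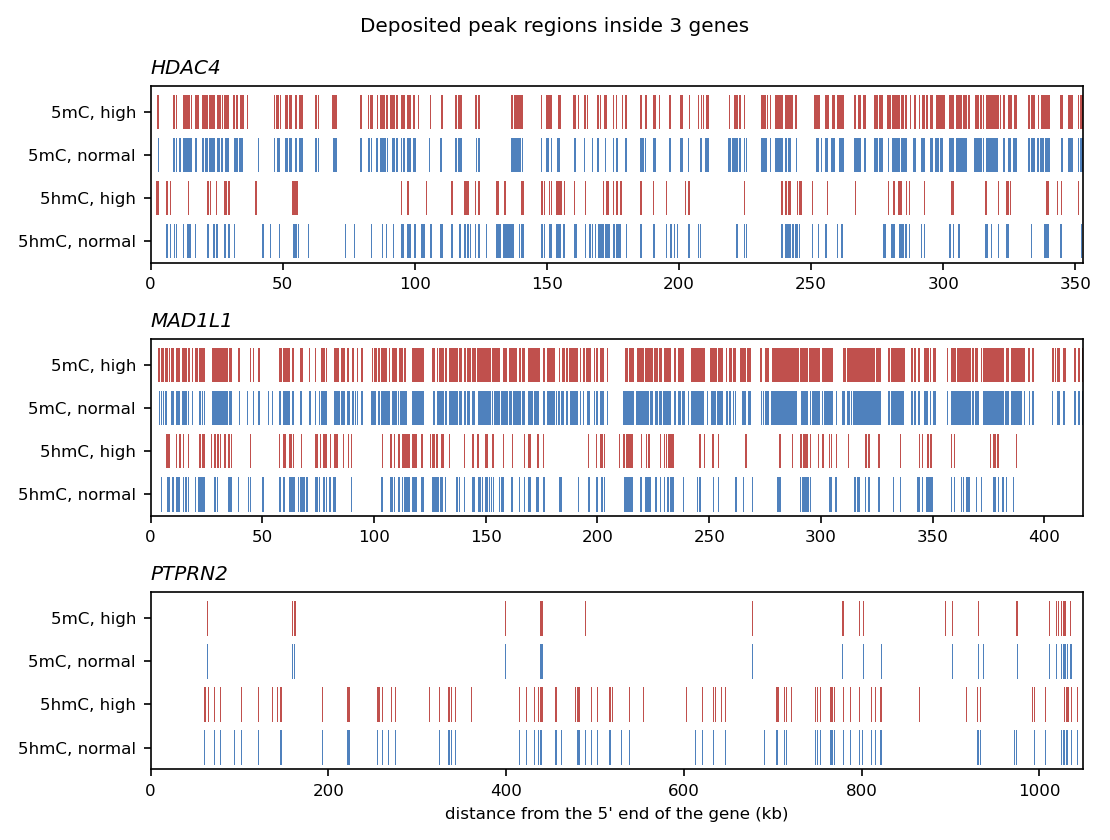
Bars mark the listed regions of HDAC4, MAD1L1 and PTPRN2 by distance from the 5′ end in kb, with a row for each of the 4 libraries (red high, blue normal glucose). HDAC4 shows 64 5hmC regions in high and 107 in normal glucose against dense 5mC, whereas PTPRN2 shows 134 and 132 5hmC regions and 5mC that is densest at its 3′ end.

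COL5A1 and SDK1 act at or outside the cell surface. COL5A1 encodes the alpha 1 chain of type V collagen, and its body (chr9:137533652-137736688, plus strand) had 40 and 54 5hmC regions and 61 and 64 5mC regions. 5mC reached 50.7% and 46.6% in the last part, while the downstream flank had 0% and 0.210%. 5hmC was lower in high glucose in 8 of 10 parts, with the widest gap in the eighth, 6.61% against 21.3%. It was higher in the 2 parts at the 3′ end, at 4.12% against 1.49% and 12.5% against 10.1%. Of its normal-glucose 5hmC regions, 59.3% (46.0% to 71.3%) had a partner, and of the high-glucose regions 80% (65.2% to 89.5%). Both intervals hold the shares over all regions, 68.8% and 75.9%.

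SDK1 encodes sidekick 1, a cell adhesion molecule of the immunoglobulin superfamily. Its body (chr7:3341080-4308631, plus strand) was sparse in both marks, with 5hmC at 5.15% and 4.93% and 5mC at 5.06% and 4.68%. 5mC was highest in parts 9 and 10, at 17.6% and 17.7% in high glucose, while no other part exceeded 5.97% in either list. 5hmC was also highest there, at 10.2% and 10.04% in high glucose. In the first 5 parts 5hmC was higher in high glucose, for example 5.83% against 4.03% in the third, and in parts 6 to 8 and 10 it was lower. The strongest 5mC region of the gene lay 964 kb from the 5′ end, at chr7:4303755-4306084 in high glucose with 59 fragments, and overlapped no 5hmC region.

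PTPRN2, RBFOX3 and DLGAP2 are genes of neuronal and neuroendocrine cells. PTPRN2 encodes a receptor-type protein tyrosine phosphatase family member of dense-core vesicles, and its body (chr7:157331750-158380482, minus strand) was the longest of the 10. 5hmC was higher in high glucose in 8 of its 10 parts. The last part had the most 5mC and the widest gap in 5hmC, with 5mC at 11.3% and 10.7% against at most 3.30% elsewhere, and with 5hmC at 8.27% in high against 11.7% in normal glucose. The strongest 5hmC region without a normal-glucose partner in the 10 genes lay in PTPRN2, at chr7:157673585-157674116, with a fold of 8.52 and 43 fragments, and the nearest normal-glucose region was 530 bp away.

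RBFOX3 encodes the neuronal splicing factor known as NeuN. Its body (chr17:77085427-77512230, minus strand) had 6 5mC regions at each glucose level and no 5mC in 7 of 10 parts, but 67 and 68 5hmC regions that covered 10.3% and 9.11%. Only 3 of these 5hmC regions overlapped 5mC in each list. 5hmC was higher in high glucose in 7 parts and lower in 2. The flanks differed from the gene, with 14.2% and 21.8% 5mC in high glucose, and 5hmC was lower there in high glucose, at 11.7% against 16.3% upstream and 16.3% against 21.96% downstream. DLGAP2 encodes a scaffold protein of the postsynaptic density, and its body (chr8:1449569-1656642, plus strand) had the fewest regions, 14 and 15 of 5hmC and 4 and 5 of 5mC. Its 5hmC was concentrated in the fourth part, at 15.2% and 13.1%. With these numbers a difference between the glucose levels was not detectable, as the interval of the ratio of regions ran from 0.457 to 1.90.

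Flanks of each gene's own length were then compared in the same way. Of 20 flanks, 8 had 5mC cover of 20% or more, and all 8 had less 5hmC in high glucose. Of the other 12, 8 had less and 4 had more. Among 100 kb tiles of all chromosomes with 20% or more 5mC, 66.9% were at least 1.2-fold lower in 5hmC and 0.52% higher. Less 5hmC in high glucose was thus common in such sequence, and no share by the measure used for flanks was counted over all chromosomes. The 4 flanks with higher 5hmC were upstream of PRDM16, HDAC4 and DLGAP2 and downstream of COL5A1, and their 5mC cover was 0.425%, 0.372%, 0.220% and 0.105% (mean of both glucose levels). These 4 were singled out after their values were seen. No other flank had 5mC below 6.01%. Some flanks lie in the same stretch of chromosome 7, upstream of MAD1L1 and of SDK1, and are not independent, and the flank upstream of PTPRN2 ends at the outermost region after 707 kb.

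In 3 of the 4 lists, regions in the genes lacked a partner at the other glucose level less often than all regions, beyond the counting interval, when an overlap of 1 bp was enough. For 5hmC, 134 of 761 high-glucose regions had no partner, or 17.6% (15.1% to 20.5%), against 24.1% over all regions, and 253 of 874 normal-glucose regions, or 28.9% (26.0% to 32.0%), against 31.2%. The second interval holds the background, so the normal-glucose 5hmC list is the exception. For 5mC the shares were 16.9% (14.1% to 20.1%) against 28.3% and 12.9% (10.4% to 15.9%) against 21.5%. Where 50% of both regions had to overlap, the shares in the genes were, in the same order of lists, 35.1%, 43.5%, 32.1% and 29.1%, against 37.0%, 42.6%, 37.5% and 31.8% over all regions. Of these, only the 5mC share of high glucose lay below its background by more than the counting interval (28.4% to 35.9%). Of the normal-glucose 5hmC regions, 37.5% (32.7% to 42.6%) had no partner in the 5mC-rich and 22.96% (19.5% to 26.8%) in the 5mC-poor genes. Regions without a partner were weak. In normal-glucose 5hmC the median -log10 p of such regions was 6.25, that of regions with a partner 12.0, and their summits held a median of 15 and 24 fragments.

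In the genes, as over all 5mC regions, fewer 5mC regions carried 5hmC in high glucose. The share was 251 of 599, or 41.9% (38.02% to 45.9%), in high and 307 of 574, or 53.5% (49.4% to 57.5%), in normal glucose, a difference of -11.6 percentage points with a counting interval of -17.2 to -5.87. Over all 5mC regions the shares were 32.2% and 39.7%, and whether the drop in the genes was larger was not tested. Without HDAC4 the difference in the genes was -7.73 percentage points. With an overlap of 50% of both regions the shares in the genes were 12.5% (10.1% to 15.4%) and 16.9% (14.1% to 20.2%), a difference of -4.38, and both intervals hold the shares over all 5mC regions, 14.2% and 17.3%. In the 5mC-rich genes the shares were 45.7% (40.8% to 50.7%) against 59.5% (54.5% to 64.4%), while the 5mC-poor genes had 35.2% (29.1% to 41.8%) against 42.3% (35.7% to 49.2%), and the difference between the sets was not tested. Places where a 5hmC region of 1 glucose level met a 5mC region of 1 glucose level were few, in the genes as over all chromosomes. Of 253 normal-only 5hmC regions, 6 overlapped high-only 5mC and 7 normal-only 5mC, against 1472 and 1541 of 65554 over all chromosomes. Of 134 high-only 5hmC regions, 5 overlapped high-only 5mC and 2 normal-only 5mC, against 953 and 475 of 46031.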

How the data were processed

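The authors deposited 1 narrow peak list per library, per the labels, and the samples were grouped by their titles. The deposited columns used were the fold enrichment (a ratio to background), the -log10 of the p-value, the -log10 of the q-value and the summit. The deposited display score equals the -log10 q multiplied by 10 and cut to a whole number, and was not used. The highest q-value in the lists was 0.0498 for 5hmC and 0.0496 for 5mC in high glucose, and 0.0496 and 0.0488 in normal glucose. Names inside the lists use Ctrl for high and Low for normal glucose, and the labels were followed. Per the submitters' processing notes, bedtools 2.17.0, SAMtools 0.1.18, Bowtie 1.0.0 and CASAVA 1.8.2 were used on hg19, in roles they do not state. The peak caller and its control were not given in the sources used here, and caller settings decide which weak regions are listed.

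Regions on chromosomes 1 to 22 and X were kept, none overlapped within a list, and those that met a gene interval were members. Cover was clipped to the gene, and bedtools 2.31.1 gave the same cover for 10 of 10 genes in each list. Gene strands are general knowledge. On acrocentric chromosomes the outermost region of the short arm lies near the centromere, and tiles there count as end tiles. Fragment counts at the summits were the whole numbers t for which the fold is (t + 1)/(L + 1) and the p-value is the Poisson probability of more than t given the expected count L, with a misfit under 1% of a step. All but 3 of the regions gave one, and the search was tested on simulated data. To match background, counts and expected counts of the high-glucose list were scaled down by the ratio of the backgrounds and its p-values computed again. Depth in reads is not stated in the sources used here. Shares carry Wilson 95% intervals, ratios of region numbers the interval of the share they imply, and differences of shares the interval built from both (SciPy 1.17.1, NumPy 2.4.6, pandas 2.3.3, Python 3.11.15). They describe counting error and nothing else, because no molecular identifiers are given and reads may be copies of 1 molecule. Named were all 10 genes, and regions by rule: the strongest of each gene and list, the 3 strongest without a partner per list, the widest per list and the parts of highest and lowest cover. The genes, lists and tests were chosen with earlier results of these data known.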

Additional observations from a re-analysis of the deposited data

How the results depend on the processing

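Tried in turn were a strict list (-log10 p from 10 up), a -log10 q from 2 up, an equal number of top peaks per mark, matched background on the strict list, joining of regions up to 500 bp apart, an overlap covering 50% of each region, 50 kb tiles, 5 and 20 parts per gene, and leaving out each gene. For the parts along the genes, the threshold, matched-background and top-peak settings were chosen after seeing the data. Of 197 alternative values, 186 stayed within the limits set for the reported one and 11 moved beyond them. The limits were the counting interval for shares, 1.5 times the value for counts of genes, and for cover ratios, which have no counting interval, that of the ratio of region numbers. For single genes these limits were wide, so staying within them says little about stability. The 5mC ratio of DLGAP2 fell from 0.917 to 0.390 on the strict list and stayed within 0.233 to 2.75. A change of direction could also stay within them, and leaving out 1 gene could not move a count of genes past its limit. Matched background could only lower the ratios of the strict list. The direction of the difference in 5hmC cover was the same in each of the 10 genes under the 5 settings applied to single genes. That of 5mC turned under at least 1 of them in SDK1, CAMTA1, RBFOX3 and PRDM16, where the interval of the ratio of region numbers includes 1. On the strict list the 5hmC cover ratio over the 10 genes was 0.981 and that of SDK1 1.26. The share of tiles with higher 5hmC was 32.1% there and the share of 5mC-rich parts with lower 5hmC 66.7%. With matched background on the strict list the 5hmC cover ratio of MAD1L1 was 0.613, below its limit of 0.682, against 0.756 in the full lists. With 50% overlap the difference in 5mC regions with 5hmC was -4.38 percentage points, and regions without a partner made up 35.1%, 43.5%, 32.1% and 29.1% of the 5hmC high, 5hmC normal, 5mC high and 5mC normal lists in the genes. With an equal number of top peaks 24.9% of 5hmC normal regions had none. Leaving out 1 gene at a time gave 5hmC ratios of 0.854 to 0.929, 5mC ratios of 1.03 to 1.05 and differences in share of -13.0 to -7.73. The causes of these shifts were not tested. No paired analysis was possible because each group had 1 library. Low fragment numbers limit the 5mC lists, where regions of 1 glucose level held a median of 9 and 7.5 fragments.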
